A study of Drosophila melanogaster with 4 samples.

Results

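The regions described are the last exon bins of genes, that is, the stretch of annotated exon that lies nearest the 3′ end of each gene. A bin is a piece of exon between neighbouring annotated exon edges, as the program DEXSeq cuts them. For every gene with at least 3 listed bins, the bin with the highest end on the plus strand or the lowest start on the minus strand was taken, and it was kept where its mean normalized count over the libraries was at least 50. Of 6067 such genes, 4706 gave a last bin and 1361 had a last bin under that mean, out of 46187 listed bins of 9639 genes. Expression values played no other part in the choice.

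The mRNA-Seq libraries came from indirect flight muscle (IFM) dissected from adult Drosophila melanogaster at 1 d, with flies kept at 27 °C. The control was w1118. The mutant was homozygous for bru1M3, an allele of bruno 1 in which a splice-trap cassette was placed ahead of exon 18, so that transcripts are cut short before the 3′ part of the gene. Each genotype had 2 replicates, each a pool of flies of that genotype and tissue, and the mutation was present in the whole animal rather than in muscle alone.

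The 3′ end of an mRNA is set where the transcript is cleaved and given its poly(A) tail. A gene can offer several such sites in a row within a single last exon, which gives transcripts with a short or a long 3′ untranslated region (UTR), or it can offer separate last exons, which change the end of the protein as well. Bruno 1 is an RNA-binding protein of the CELF family, which is known for controlling alternative splicing in fibrillar flight muscle and, in other tissues and animals, the translation and decay of mRNAs through sites in their 3′ UTRs.

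Use of a bin was given as a score per genotype, fitted by DEXSeq over both replicates on a variance-stabilized scale after the change of the whole gene was taken out. Over the 30280 listed bins with a mean of at least 50 and a score, 1 doubling of the bin mean raised the score by 2.41 on average (r = 0.984 across bins, which are not independent). A last bin was counted as used more or less in bru1M3 where the scores differed by at least that step. The step is an average over bins, so it need not equal 1 doubling at every count level. Because the table holds 1 value per genotype, no bin could be tested against replicate error, and the differences below are descriptions of these fitted values. A score that falls says that a bin kept a smaller share of its gene in bru1M3, which can also hold where the gene rose and the bin did not.

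Libraries held 30384053 to 34105524 reads assigned to genes, of which genes of the mitochondrial genome took 63.7% and 72.6% in w1118 and 29.0% and 41.2% in bru1M3. All 5 genes listed as fibrillar muscle markers (Act88F, Mlc2, fln, TpnC4 and salm) were present. Their summed level was 1430940 and 1462521 normalized counts in w1118 and 1529259 and 2051276 in bru1M3. This sum does not give the level of each gene. Markers of other cell types were low against these and differed between the genotypes. Summed over 4 genes each, gut markers ranged from 8105 to 13671 in w1118 and from 2272 to 5764 in bru1M3, neuron markers from 3286 to 5171 and from 1252 to 1840, and photoreceptor markers from 164 to 2834 and from 6.82 to 235. The 2 tubular muscle markers summed to 4409 and 6092 in w1118 and to 1604 and 2728 in bru1M3, and the 3 measured fat body markers to 158 and 498 and to 565 and 931. In bulk tissue, fewer cells of a type and less RNA per cell cannot be told apart, and the part of these differences in the results was not tested.

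Last bins were shifted towards lower use in bru1M3 as a class. Their median difference, bru1M3 minus w1118, was -0.39 score units, and 3236 of the 4706 (68.8%) were below 0, whereas inner bins of the same kind of gene had a median of 0.06 and the 5′-most listed bins one of 0.19. The profile along genes was graded. With position scaled from 0 at the 3′ end to 10 at the 5′ end, the median was -0.37 at position 0, -0.14 at 1, 0.00 at 2 and 0.19 at 10. This shift ran over genes in general and moved with the genotype, as did the mitochondrial share above. Its part in the differences of single genes was not tested.

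**Figure D1:**
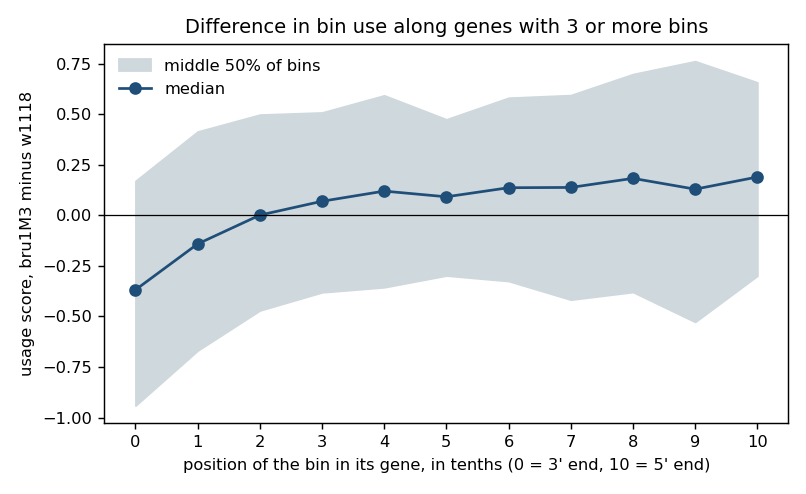
Median (points) and middle 50% (band) of the difference in usage score, bru1M3 minus w1118, of bins with a mean of at least 50, by position in genes with 3 or more listed bins, scaled from 0 (3′ end) to 10 (5′ end). The median is -0.37 nearest the 3′ end and 0.19 at the 5′ end.

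Of the 4706 last bins, 145 (3.08%) were used less in bru1M3 by at least 1 doubling step and 39 (0.829%) were used more. Over all 30280 bins the background was 1.67% used less and 1.25% used more, so that last bins stood above it in the lower direction and below it in the higher direction. Inner bins gave 1.57% and 1.44%, and the next bins upstream of the last ones 0.883% and 0.625%. When the median shift of the last bins was subtracted, an alternative chosen after the data were seen, 90 were used less and 68 used more, which is 1.91% and 1.44%. Measured instead against the next listed bin upstream in the same gene, 183 last bins lay lower by a step or more and 81 higher.

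The bins that only some transcripts reach carried most of the changes. In 3350 genes every listed transcript held the last bin, and of these bins 33 (0.985%) were used less and 13 (0.388%) more. A further 1111 last bins were distal stretches, present in part of the transcripts and directly adjoining a listed bin upstream, as the far part of a lengthened 3′ UTR does. Among them 95 (8.55%) were used less and 20 (1.80%) used more, with a median difference of -0.64. The remaining 245 were separate alternative ends, which part of the transcripts held and which did not adjoin the next listed bin. Of those, 17 (6.94%) were used less and 6 (2.45%) used more. Last bins with no annotated coding sequence numbered 1151, and 98 (8.51%) of them were used less, against 45 of 3479 (1.29%) that held coding sequence.

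**Figure D2:**
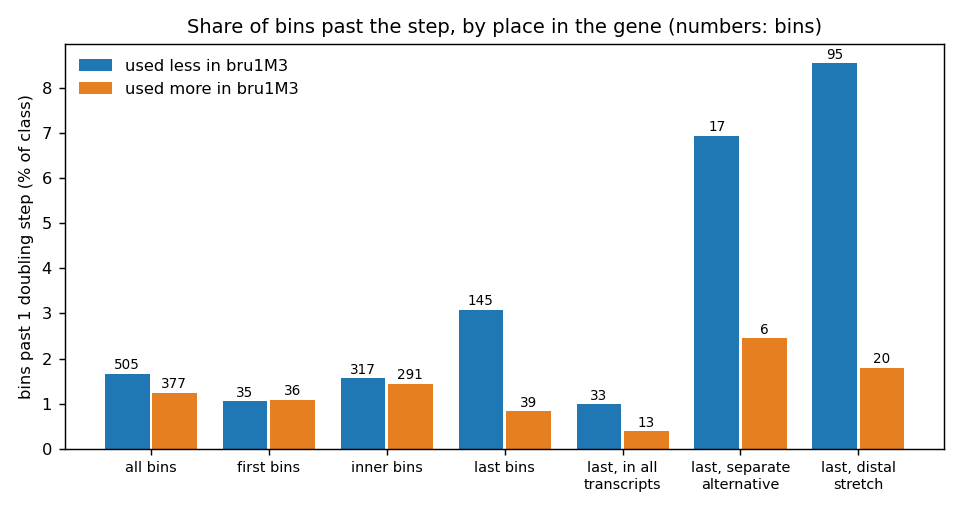
Share of bins (vertical axis, percent of the class) whose score differed by at least 1 doubling step, lower (blue) or higher (orange) in bru1M3, with the number of bins above each bar. Distal stretches show the highest share used less, 8.55%, against 1.67% of all bins.

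By strand, 65 of 2308 plus-strand members (2.82%) and 80 of 2398 minus-strand members (3.34%) were used less. By arm the share ran from 2.08% on the X (16 of 768) to 16.1% on the small chromosome 4 (9 of 56). Short bins fell more often than those of middle length. Under 200 bases, 17 of 267 were used less, between 500 and 1000 bases 34 of 1576, and from 2000 bases upwards 17 of 321.

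**Figure D3:**
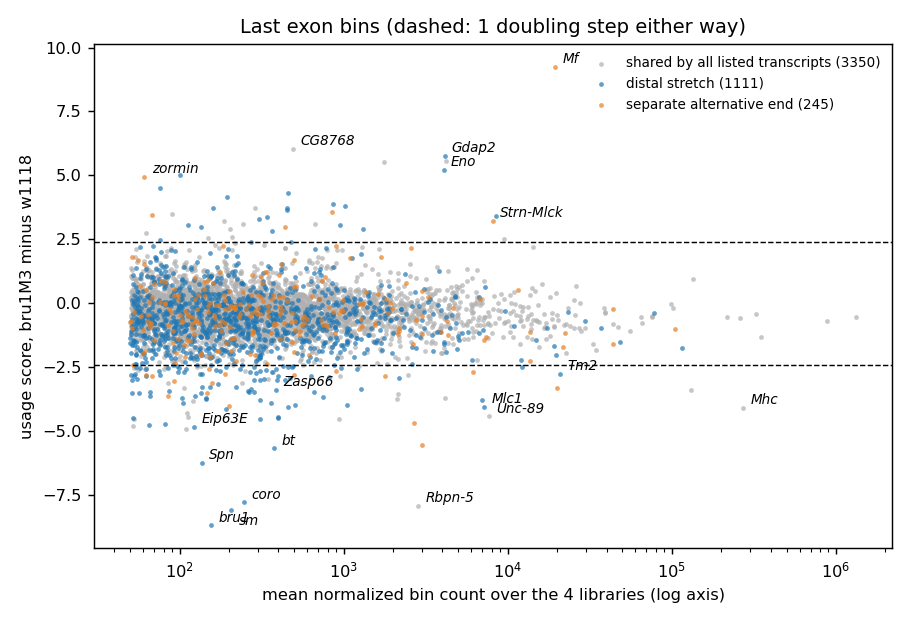
Difference in usage score of each of the 4706 last bins (vertical axis, bru1M3 minus w1118) against its mean normalized count (horizontal log axis), coloured by class, with named genes labelled. Dashed lines mark 1 doubling step, past which 145 bins lie below and 39 above.

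The lowest value belonged to bru1 itself. Its last bin (bin 24, chromosome arm 2L, 12312796 to 12313438, plus strand, 643 bases of UTR held by 2 of 10 transcripts) scored 14.2 in w1118 and 5.51 in bru1M3, a difference of -8.68. All 7 listed bins from bin 18 to bin 24 were lower, between -3.84 and -10.37, while bins 17, 14 and 13 upstream were higher by 2.47, 3.18 and 3.95. The change of sign falls at bin 18, where the cassette sits just upstream. Normalized counts of the whole gene were 1807 and 1386 in w1118 and 10618 and 9976 in bru1M3, a 6.50-fold rise fitted on the log2(count + 1) scale (SE 0.19 on that scale, limma adjusted p = 0.000189, n = 2 per genotype). Gene-level differences below are on that scale, with the SE after the sign ±. The 2 genotypes did not overlap, and the mutant had more reads over bru1 as a whole and less of its 3′ part relative to the rest. By RT-qPCR and antibody the paper found bru1 mRNA and Bru1 protein nearly gone. Its RT-PCR showed more RNA with exons upstream of the cassette, so whole-gene counts do not measure intact bru1 mRNA.

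After bru1, the lowest last-bin difference was that of sm (smooth), which encodes an RNA-binding protein of the hnRNP L type. Bin 1 (2R, 19517864 to 19523751, minus strand, 5888 bases, 4 of 21 transcripts) scored 15.01 in w1118 and 6.91 in bru1M3, a difference of -8.10. The adjoining bin 2, of 6129 bases, differed by -1.41, and bins 3 to 8 lay between -0.25 and 0.64. Among the 10 bins nearest the end, no other passed the step. Gene counts of sm were 817 and 887 in w1118 and 2409 and 2404 in bru1M3, 2.82-fold higher (SE 0.16 on the log2 scale, adjusted p = 0.000858).

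The gene coro, which encodes the actin-binding protein coronin, had the same layout. Its far stretch (bin 1, 2R, 6862001 to 6862259, minus strand, 259 bases, 4 of 7 transcripts) scored 14.8 in w1118 and 7.05 in bru1M3. Bin 2 next to it was -1.41, whereas the last bin was -7.79. Counts of coro rose from 2765 and 3082 to 16634 and 15551, by 2.46 ± 0.17 (adjusted p = 0.000186), and the mean count of the far stretch was 247 against 19238 for bin 2.

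In Spn, which encodes Spinophilin, a scaffold of protein phosphatase 1, and in Eip63E, a cyclin-dependent kinase, the far stretch fell while the bins before it rose. The last bin of Spn (bin 1, 3L, 2505245 to 2506570, minus strand, 1326 bases, 2 of 11 transcripts) scored 12.2 in w1118 and 5.95 in bru1M3, a difference of -6.24, and bins 2 to 7 were higher by 0.77 to 2.71. That of Eip63E (bin 21, 3L, 3608550 to 3610521, plus strand, 1972 bases, 2 of 14 transcripts) went from 11.3 to 6.46, a difference of -4.82, and bins 16 to 20 were higher by 1.16 to 2.28. Both genes rose as a whole. Counts of Spn were 1013 and 932 in w1118 against 2659 and 3100 in bru1M3, higher by 1.56 ± 0.17 (adjusted p = 0.000911), and those of Eip63E were 458 and 501 against 1999 and 1994, higher by 2.06 ± 0.16 (adjusted p = 0.000304).

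**Figure D4:**
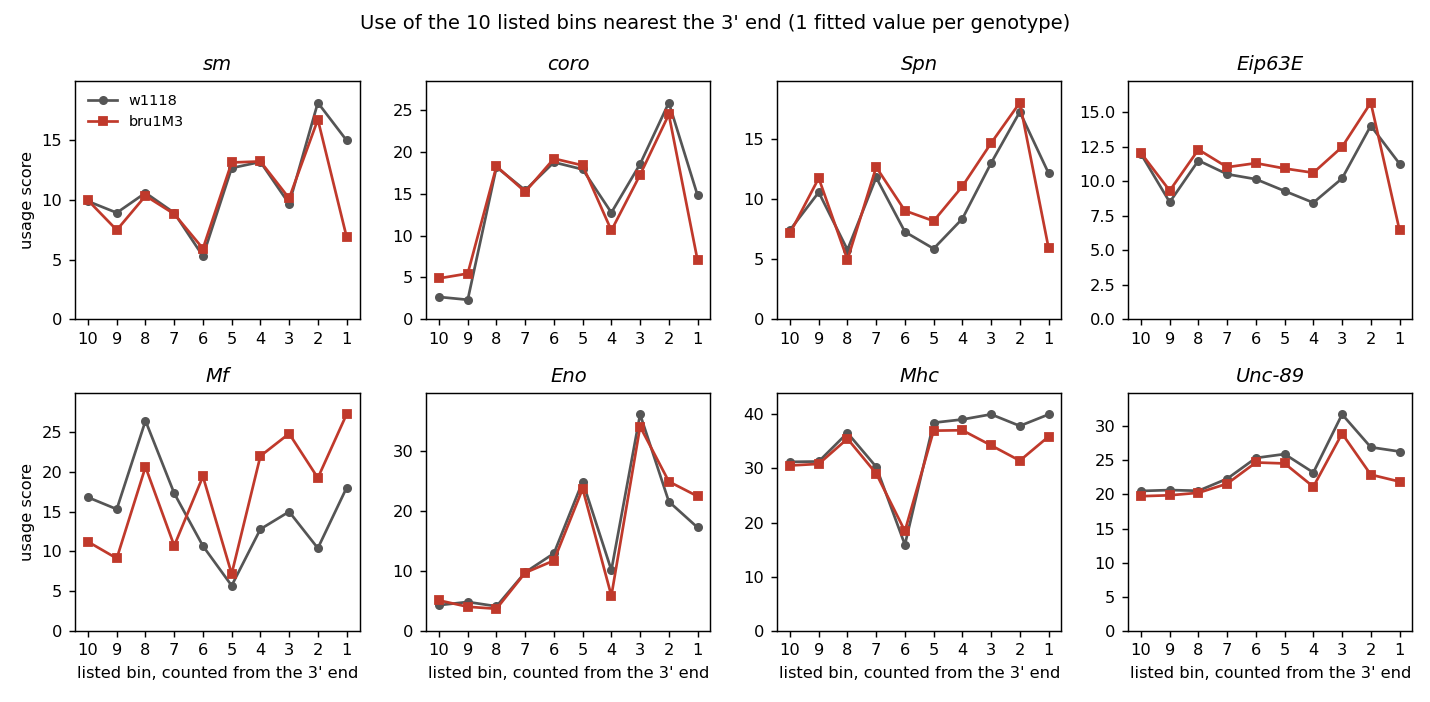
Usage score (vertical axis, from 0, 1 fitted value per genotype) of the 10 listed bins nearest the 3′ end, numbered 1 at the end, in w1118 (grey circles) and bru1M3 (red squares). In sm, coro, Spn and Eip63E the curves part at the last bin, in Mf they cross, in Eno the last 2 bins are higher in bru1M3, and in Mhc and Unc-89 several bins are lower.

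Sarcomere genes were represented by 55 members, of which 8 (14.5%) were used less and 3 (5.45%) more, against 3.08% and 0.829% of all last bins. Their median was -0.61 against -0.39 over all members, and 39 of the 55 were below 0. The list was not matched to all last bins by class or by count. Over all members, 8.55% of distal stretches, 6.94% of separate ends and 0.985% of bins in every transcript were used less. The largest rise of any last bin was in this list. Mf encodes Myofilin, a protein of the thick filament, and its last bin (bin 1, 3R, 15170625 to 15171374, minus strand, 750 bases with coding sequence, 9 of 17 transcripts) scored 18.0 in w1118 and 27.2 in bru1M3, a difference of 9.24. Bins 2, 3, 4 and 7 rose with it, by 8.84, 9.82, 9.20 and 8.75, whereas bins 8, 9, 10 and 11, just upstream of them, were at -6.60, -5.80, -6.19 and -5.59. Neighbouring blocks of bins at the end of Mf thus moved in opposite directions. Counts of the gene were 16171 and 13882 in w1118 and 31973 and 35046 in bru1M3, a log2 rise of 1.16 ± 0.20 (adjusted p = 0.00727) that became 1.05 and lost the call without replicate 2 of w1118.

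Mhc, the myosin heavy chain, has alternative C-terminal exons. Its last bin (bin 37, 2L, 16788021 to 16788766, plus strand, all 21 transcripts) scored 40.0 in w1118 and 35.9 in bru1M3, a difference of -4.09, and the bins before it, 36 and 35, differed by -6.42 and -5.74. Bins 34 and 33 were at -1.99 and -1.47, so that the lower use covered the final 3 bins. By RT-PCR and a GFP reporter, the paper found more of an alternative Mhc termination in the mutant, which early flight muscle and tubular muscle use. Since all listed transcripts held the last bin, its score does not tell the alternative terminations apart. The lower score therefore does not show whether that termination fell or rose, and its relation to the paper's finding was not tested. Whole-gene counts were 460154 and 522970 in w1118 and 475958 and 933604 in bru1M3 (log2 difference 0.44 ± 0.54, adjusted p = 0.602), and the mutant libraries differed more from each other than the means did.

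Of the myosin light chain gene Mlc1, bin 1 (3R, 27657078 to 27657562, minus strand, 485 bases of UTR, 1 of 3 transcripts) scored 25.9 and 21.8, a difference of -4.06. The adjoining bin 2 was at -1.55. Bin 3, a 47-base piece ahead of them, moved the other way by 13.6, from 20.3 to 34.0, the largest rise of any listed bin with a mean of at least 50. Gene counts were 240304 and 255606 against 298485 and 371077 (log2 difference 0.43 ± 0.38, adjusted p = 0.466).

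Members of the titin-like family differed in shape. In bt, which encodes projectin, the last bin (bin 51, chromosome 4, 776082 to 776474, plus strand, 393 bases, 1 of 5 transcripts) scored 15.2 and 9.57, a difference of -5.67, but the fall was graded, with -3.33 in bin 50, -2.33 in bin 49, -2.05 in bin 48 and -1.14 in bin 43. Unc-89 encodes the fly obscurin of the M-line, and it showed a graded fall too, from -4.41 in bin 1 through -4.02, -2.82, -2.08 and -1.37 to -0.66 in bin 6, although all 6 transcripts held its last bin (2R, 23995543 to 23995822, 280 bases). Zormin, a titin-like protein of the Z-disc and M-line, had a rise of 4.95 in its last bin (3L, 2117466 to 2117623, 158 bases, 1 of 6 transcripts), from 2.12 to 7.07, with 4.84 in bin 2 and -3.06 in bin 3. At a mean count of 61.0 this zormin end stayed a small part of a gene with counts of 2603 to 2641 in w1118 and 2176 to 3150 in bru1M3.

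Strn-Mlck, a titin-like kinase gene of flight muscle, also rose at its end. Its last bin (bin 1, 2R, 15946933 to 15947606, minus strand, 674 bases with coding sequence, 8 of 10 transcripts) went from 19.5 to 22.7, a difference of 3.23, and bins 2 to 8 were higher by 3.53 to 4.78. Bin 23 of the gene was at -15.8, the lowest difference of any listed bin with a mean of at least 50. The paper found that the flight muscle isoform R of this gene was lost in the mutant, in RNA and protein. The relation of that loss to these bins was not tested. Counts of Strn-Mlck were 134346 and 145275 in w1118 and 57922 and 139160 in bru1M3, and the genotypes overlapped.

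The remaining sarcomere members past the step, 4 in all, were lower. Zasp66, a Z-disc protein of the Zasp family, went from 14.2 to 10.8 in a 140-base far stretch, a difference of -3.38, with -0.08 in the adjoining bin. For flw, a catalytic subunit of protein phosphatase 1, the far stretch of 1752 bases went from 13.2 to 9.75, and the bin before it was at 0.34. Mlp60A, a muscle LIM protein, went from 29.8 to 26.5 in a last exon held by 2 of 4 transcripts. Its bins 8 to 12 lay between -1.96 and -1.11, and bins 6 and 7 were higher by 5.72 and 4.11. Gene counts of Mlp60A were 19130 and 21666 in w1118 and 11464 and 25711 in bru1M3, and the genotypes overlapped. The paper reports an isoform switch of Mlp60A in the mutant and higher expression in adult bru1 knockdown muscle. The relation of its last bin to these findings was not tested. In Tm2, tropomyosin 2, the last bin went from 29.2 to 26.4, a difference of -2.75, against -1.43 in bin 10.

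Genes whose isoforms the study looked at were not all called at their last bin. In wupA, which encodes troponin I, the last bin was at -1.67 and bins 2 and 3 at -1.62 and -1.82, while bin 4, a 43-base piece, was at -7.58 and bin 8, of 101 bases, at 11.9. In sls (sallimus, the fly titin homolog) and Zasp52 (a Z-disc scaffold) the last bins were at -1.70 and -1.01, and in CLIP-190, a microtubule-binding protein, at 1.11. By RT-PCR and a GFP reporter, the paper found that wupA switched from the flight muscle termination to the tubular one in bru1M3. For CLIP-190, a GFP tag in exon 29 appeared earlier in bru1 knockdown muscle than in control. How these ends relate to the bins given here was not tested. By RT-PCR the study tested inner exons of sls and Zasp52, not their last ones, and bin 10 of sls was at 8.44. Whole-gene counts of sls rose from 30423 and 34674 to 130802 and 171765, by 2.21 ± 0.27 (adjusted p = 0.00167), and those of CLIP-190 from 979 and 1057 to 3699 and 3830, by 1.89 ± 0.16 (adjusted p = 0.000353). Tm1, tropomyosin 1, was no member, since its 3′-most bin had a mean of 43.4. Within Tm1, bin 31 was at -9.48 and bin 33 at 10.96, and both lie ahead of the outermost bin, so that a rule that takes only that bin does not see them. The study followed these genes in bru1M3 or bru1 knockdown muscle, some of them after earlier work on Bru1. Their values are therefore not independent evidence of a direction.

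Rises among genes outside the sarcomere list were led by CG8768. Its last bin (bin 1, 2R, 12691308 to 12691735, minus strand, 428 bases with coding sequence, the single listed transcript) went from 6.87 to 12.9, a difference of 6.03, while bins 2, 3 and 4 were at -1.25, -2.62 and -1.66. Gene counts were 349 and 288 in w1118 and 596 and 913 in bru1M3, higher by 1.22 ± 0.25 (adjusted p = 0.0152), a call that was lost without w1118 replicate 2 (1.08) or bru1M3 replicate 2 (0.91).

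In Gdap2 and Eno the far stretch rose together with bins before it. The far stretch of Gdap2 (bin 1, 2R, 7716807 to 7718278, minus strand, 1472 bases, 1 of 6 transcripts) went from 15.6 to 21.3, a difference of 5.78, and bins 2 to 7 were also higher, by 2.60 to 4.67, with -3.36, -2.85 and -2.07 in bins 8, 9 and 10. Counts of Gdap2 rose from 3232 and 2490 to 10639 and 7352, by 1.64 ± 0.23 (adjusted p = 0.00318). Eno encodes enolase, a glycolytic enzyme, and its far stretch (bin 1, 2L, 1724768 to 1724973, minus strand, 206 bases, 1 of 6 transcripts) went from 17.3 to 22.5, a difference of 5.21. Bin 2 was higher by 3.35 and bin 3, with a mean count of 124008, was at -2.05, while gene counts were 71308 and 64419 against 34261 and 56614 (log2 difference -0.62 ± 0.30, adjusted p = 0.18).

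**Figure D5:**
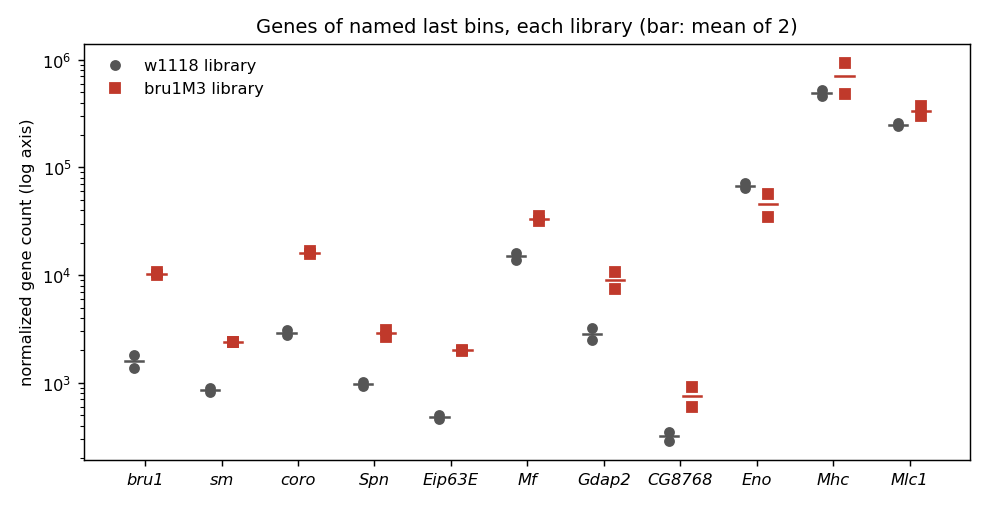
Normalized gene counts (vertical log axis) of each library for genes with a named last bin, w1118 as grey circles and bru1M3 as red squares, with bars at the mean of the 2 libraries. The libraries do not overlap for bru1, sm, coro, Spn, Eip63E, Mf, Gdap2, CG8768, Eno and Mlc1, while for Mhc the lower mutant library lies within the w1118 range.

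Several of the largest differences lay where a gene on the opposite strand overlaps. By the annotation, 1393 members overlapped an exon of an opposite-strand gene and 9 an exon of another gene on the same strand. Of 4693 members whose gene was in the gene table, 63 had a bin mean at least 5 times the gene mean, and 62 of these 63 overlapped an opposite-strand exon. The libraries were strand-specific, but the strand setting of the counting is not given in the sources used here, and the bin and gene tables were normalized separately.

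The gene r-l encodes UMP synthase. Its last bin (3R, 21070557 to 21071824) had a mean of 1765 and rose by 5.51, from 12.9 to 18.4, while gene counts of r-l were 25.5 and 49.3 in w1118 and 21.8 and 27.7 in bru1M3. On the other strand, counts of AnxB9, an annexin, were 1513 and 1494 in w1118 and 14553 and 13128 in bru1M3, higher by 3.20 ± 0.16 (adjusted p = 7.85e-05). Cyp4aa1, a cytochrome P450 gene, had a last-bin mean of 4183 and a rise of 5.57, with gene counts of 107 to 266, and it overlaps the last bin of Strn-Mlck, which rose by 3.23 as given above. There the counts of the neighbouring gene as a whole did not move with the bin, since the log2 ratio of the mean counts of Strn-Mlck was -0.50. The last bins of Rbpn-5, a Rab5 effector, and of Treh, trehalase, overlap over most of their length, and their differences were -7.91 and -5.53. Counts of Treh fell from 9517 and 8674 to 4105 and 4409, by 1.09 on the log2 scale (SE 0.16, adjusted p = 0.00415), whereas those of Rbpn-5 were 252 and 181 against 468 and 403.

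In other pairs the neighbour's counts rose with the bin. The last bin of Vps35, a retromer subunit, rose by 4.31 beside Swim, whose counts went from 817 and 1297 to 13286 and 12465, higher by 3.64 ± 0.23 (adjusted p = 0.000159). The last bin of 140up rose by 5.01 beside twf, twinfilin, with counts of 54.5 and 62.4 in w1118 and 276 and 219 in bru1M3. For CG43222 the rise of 4.49 stood beside atl, atlastin (counts 905 and 783 against 1763 and 1955, higher by 1.14 ± 0.17, adjusted p = 0.00415), and CG43222 itself fell from 296 and 277 to 7.51 and 9.997, by 4.89 on the log2 scale (SE 0.37, adjusted p = 0.000255). Of 54 members past the step whose opposite-strand neighbour was measured, the neighbour's mean count differed in the direction of the bin in 40, namely 15 of 19 used more and 25 of 35 used less. Only the sign was compared, and some neighbours hardly moved, such as gro beside Exo84, with a log2 ratio of -0.05. The same share over all members that overlap an opposite-strand exon was not counted, so the 40 of 54 have no background. The part of the neighbour in each bin was not tested.

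The score also has little meaning where the gene was nearly absent. In 40 members the gene mean was under 10 normalized counts in a genotype, and 5 of these were past the step. LManIII, a lysosomal mannosidase gene, had counts of 0 and 2.19 in w1118 and 85.3 and 185 in bru1M3, and its last-bin difference was -4.92. ChLD3, a chitin deacetylase-like gene, was at 0 in both w1118 libraries and at 81.2 and 73.8 in bru1M3, with -4.81. Restricting members to the 3296 clear of any other gene's exon, with a gene mean of at least 10 in both genotypes, a choice made after the data were seen, left 104 used less (3.16%) and 18 used more (0.546%). The share used less was as high as among all members, while the number used more was under 50% of the original 39. The named rises at r-l, Cyp4aa1, 140up, CG43222, Vps35 and Strn-Mlck lie outside this subset. So do the named falls at Rbpn-5, Treh, LManIII and ChLD3. Distal stretches in the subset were used less in 76 of 830 cases (9.16%).

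The shape of the change towards the end differed between members. Of the 145 bins used less, 70 lay at least 1 step below the next bin upstream, as in sm, coro and Spn, 18 had an upstream bin past the step in the same direction, as in Unc-89, bt and Mhc, and 43 had an upstream bin of the opposite sign. Of the 39 used more, 25 lay at least 1 step above the next bin, 9 had an upstream bin past the step as well, as in Mf, Gdap2 and zormin, and 22 an upstream bin of opposite sign. A bin elsewhere in the gene moved past the step the other way for 36 of the 145 and 14 of the 39. The same share over genes whose last bin was not past the step was not counted, so these numbers have no background.

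At the level of whole genes, 4678 genes with a member were tested with limma, and 797 (17.0%) rose and 467 (9.98%) fell at an adjusted p under 0.05. Over all 9228 genes tested the background was 12.8% higher and 9.33% lower. Of 144 tested genes whose last bin was used less, 42 rose and 13 fell (29.2% and 9.03%). Of the 39 whose last bin was used more, 12 rose and 8 fell. Genes not past the step rose in 16.5% and fell in 9.92% of 4495 cases. Read the other way, 5.27% of last bins in genes that rose were used less, against 2.78% in genes that fell and 2.61% in genes that were not called. Scaling to equal totals of genes outside the mitochondrial genome moved the median log2 difference of all genes from 0.00 to -0.13 and gave 632 higher and 647 lower member genes, and quantile normalization gave 712 and 721. Without bru1M3 replicate 1, 376 genes were higher and 63 lower, and without bru1M3 replicate 2, 446 and 240. Leaving out w1118 replicate 1 or 2 gave 242 or 248 lower. Labels do not say whether the replicates came from separate crosses, so the p-values measure the spread between these pools of flies.

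The machinery that cuts and tails mRNAs was measured in a list of 25 tested genes, which also held the ELAV-type proteins that bind near poly(A) sites. Of these 25, 3 rose and 0 fell by limma, 8 were higher and 1 lower at an unadjusted p under 0.05, and the median log2 difference was 0.37 against 0.00 over all genes. The 3 called are 12.0% of the list, near the 12.8% of all genes called higher, so that the count does not set the list apart. Cpsf6, a subunit of cleavage factor I, had counts of 233 and 265 in w1118 and 553 and 463 in bru1M3, higher by 1.02 ± 0.21 (adjusted p = 0.0142). Pp1-87B, a phosphatase catalytic subunit, had 3330 and 3025 against 8047 and 6943, higher by 1.24 ± 0.17 (adjusted p = 0.0028). Hel25E, a helicase of mRNA export, had 162 and 202 against 473 and 327, higher by 1.12 ± 0.26 (adjusted p = 0.0231). Cpsf6 lost its call without w1118 replicate 1 (0.93), bru1M3 replicate 1 (0.89) or bru1M3 replicate 2 (1.15), and Hel25E lost its call in the same 3 cases (0.96, 0.85 and 1.38) and under the scaling outside the mitochondrial genome (0.99).

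Core subunits were not called by limma, but not all of them were level. On the log2 scale CstF64 was at 1.19 ± 0.45 (adjusted p = 0.103) and Fip1 at 0.75 ± 0.30 (adjusted p = 0.115). CstF50 was at -0.35 ± 0.48 (adjusted p = 0.633). Counts of Cpsf160 were 83.4 and 87.6 in w1118 and 79.8 and 106 in bru1M3, and those of Pcf11 were 1329 and 1274 against 1234 and 1438. The gene called lower by DESeq2, singled out after its values were seen, was fne, an ELAV-type gene of neurons, with 252 and 251 in w1118 and 59.4 and 153 in bru1M3. Neuron markers were lower in the mutant libraries as well, as given above. Of 10 tested genes for decay and translational control of mature mRNAs, 3 rose (30.0%, against 12.8% of all genes) and 0 fell (against 9.33%). They were pcm, the cytoplasmic 5′ to 3′ exonuclease (194 and 172 against 731 and 596, adjusted p = 0.00123), me31B, a helicase of repressed mRNPs (604 and 667 against 1526 and 1107, adjusted p = 0.0133), and Not1, the scaffold of the deadenylase complex (2211 and 1940 against 3146 and 3695, adjusted p = 0.0249). The list is short, and whether these 3 calls hold without a library or under another normalization was not examined.

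At the edge of the minimum mean, the 3 last bins just under 50 were those of borr (49.98), Fbxl7 (49.9) and Alg1 (49.8), with differences of 2.43, 0.72 and -0.73. The 3 just above it were those of CG3760 (50.1), CG4678 (50.1) and Pld3 (50.2), with -1.56, -0.72 and -1.37.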

How the data were processed

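Libraries were poly(A)-selected, strand-specific and paired-end. Per the submitters' notes and the methods, the authors mapped reads with STAR 2.7.3a to BDGP6, used SAMtools 1.1, counted with featureCounts of Subread 2.0.0 and normalized with DESeq2 1.32.0. The version of DEXSeq and the filter behind the exon table are not given in the sources used here, nor is the strand setting of the counting.

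The deposited gene table holds a signal rather than raw counts, since the authors scaled each library by its DESeq2 size factor. Whole reads were recovered for 100% of its values, within 0.01 read. The deposited exon table holds mean normalized bin counts (signal) and, as a score per genotype, the exon use that the authors fitted with DEXSeq. It also holds 4 columns of per-library values that matched no sample name and were not used, and the authors' fold changes and p-values, which were not used.

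Genes were compared with limma 3.58.1 (R 4.3.3, trend) on log2(normalized count + 1) with a minimum of 10 in 2 libraries, with Benjamini-Hochberg adjustment over all genes. edgeR 4.0.16 and DESeq2 1.42.0 on recovered reads were alternatives. Scripts were tested on simulated data. Bins were matched to an annotation of the same assembly: 4674 members had their gene there, and 91.2% of those reached the annotated gene end. Lower counts limit precision, and a bin mean carries no replicate error.

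Members and gene lists were chosen with earlier results of these data known. Named members were the 10 largest rises and falls, sarcomere members past the step and the last bins of genes whose isoforms the study followed. With them came each such gene's bin differing most in the other direction, and the 3 last bins on either side of the minimum mean. The cleavage and polyadenylation genes called were named as well. Other genes were named after their values were seen. Partner bins, neighbours' values and the alternatives named as chosen later are descriptions. No sequences are shown.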

Additional observations from a re-analysis of the deposited data

How the results depend on the processing

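Counts of last bins rest on 1 fitted value per genotype. Leaving out replicates and a replicate block were not run for bins, since the table holds no library values for them. The number used less and more was 779 and 193 at 0.5 of the step and 43 and 17 at 1.5 times the step. With a minimum mean of 200, 73 were used less. Centring on the last bins' own median gave 90 and 68, comparison with the next bin upstream gave 81 used more, and the subset clear of other genes held 18 used more. A minimum mean of 20, at least 2 or 5 listed bins, bins at the annotated gene end and centring on all bins left both counts within 1.5 times, and no joined genes existed to leave out.

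For whole genes, quantile normalization gave 721 lower member genes. Without each library in turn, higher member genes ranged from 376 to 595 and lower ones from 63 to 248. In the list for cleavage and polyadenylation, higher genes ranged from 1 to 3 and lower ones from 0 to 1 on leaving out a library, and 1 gene was lower with a minimum of 50, quantile normalization, the scaling outside the mitochondrial genome, DESeq2 or the replicate block. The fold change of Mhc ranged from -0.0436 without bru1M3 replicate 2 to 0.928. Replicate numbers did not pair the libraries (correlation of deviations 0.03). With the replicate block, 835 member genes were higher and 537 lower. The causes were not tested.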
